A study of Mus musculus with 6 samples.

Results

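The genes described here are 9 named genes of the renin-angiotensin system and of mural cells: Ren1, Agt, Ace, Agtr1a, Agtr2, Acta2, Myh11, Tagln and Pdgfrb. They were chosen by symbol, for their known roles, out of 20659 named genes with a probe on the array. Each had 1 probe, and all 9 were among the 21219 genes tested. RNA of whole kidney was measured in 3 neonates labelled USP10 KO and 3 neonates labelled USP10 WT, collected about 6 hours after birth and all labelled male. USP10 is a deubiquitinase, an enzyme that removes ubiquitin from other proteins. The strain, the way the gene was disrupted and the cells in which it was disrupted are not given in the sources used here. The series describes the neonates as independent, and each array held the Cy3-labelled RNA of 1 sample.

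Renin, made in the kidney by juxtaglomerular cells of the afferent arteriole, cleaves angiotensinogen, and angiotensin-converting enzyme turns the product into angiotensin II, which acts on type 1 and type 2 receptors. Mural cells are the cells wrapped around vessels: smooth muscle cells around arterioles, pericytes around capillaries and mesangial cells within the glomerulus. In the developing kidney, renin cells, smooth muscle cells and mesangial cells arise from the same stromal progenitors, and mice that lack renin-angiotensin genes form thickened arterioles and a poorly developed papilla.

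None of the 9 genes passed the test between arrays labelled KO and arrays labelled WT. Calls were rare over all genes too: limma called 17 of 21219 genes, or 0.0801%, at a Benjamini-Hochberg adjusted p under 0.05. Pdgfrb, the receptor that marks pericytes and mesangial cells, was the member whose 2 groups of arrays did not overlap, with lower values on the KO arrays. Ren1 and Acta2 had the most negative differences with Pdgfrb, but 1 array, KO replicate 2, carried most of each. Agtr1a lay on the other side, with a higher mean on the KO arrays.

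Every level below is the log2 of a probe's signal minus the 75th percentile of log2 signals on the same array, so 0 is the brightness of the 75th percentile probe. A difference is the mean of the KO arrays minus the mean of the WT arrays on that log2 scale, with its standard error from limma. Levels of different probes cannot be set against each other. In whole tissue, fewer cells of a type and less RNA per cell cannot be told apart.

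Several facts of the arrays bear on all results. Between 64.4% and 73.9% of spots were well above background, no spot was saturated, and the number of arrays limits the precision. A larger part of all signal, 39.1%, came from the top 1% of spots on KO replicate 2 than on any other array (29.4% to 31.9%). The file headers give 2 scan times, the first for KO replicates 1 and 2 and WT replicates 2 and 3, the second for KO replicate 3 and WT replicate 1. The Usp10 probe went against the labels: it read 3.64, 3.37 and 3.56 on the arrays labelled KO, against 3.01, 3.13 and 2.95 on those labelled WT (0.49 ± 0.16, limma adjusted p = 0.416), and where it lies relative to the disrupted part is not known here. Directions below therefore rest on the labels alone. The Y-linked Ddx3y, Eif2s3y and Uty were not above background on WT replicate 2, and the female-expressed Xist was above background on WT replicates 1 and 2 and on no other array. WT replicate 3 is thus the WT array whose sex-linked probes fit its male label, and values of the 9 genes against it alone are given beside their results.

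**Figure D1:**
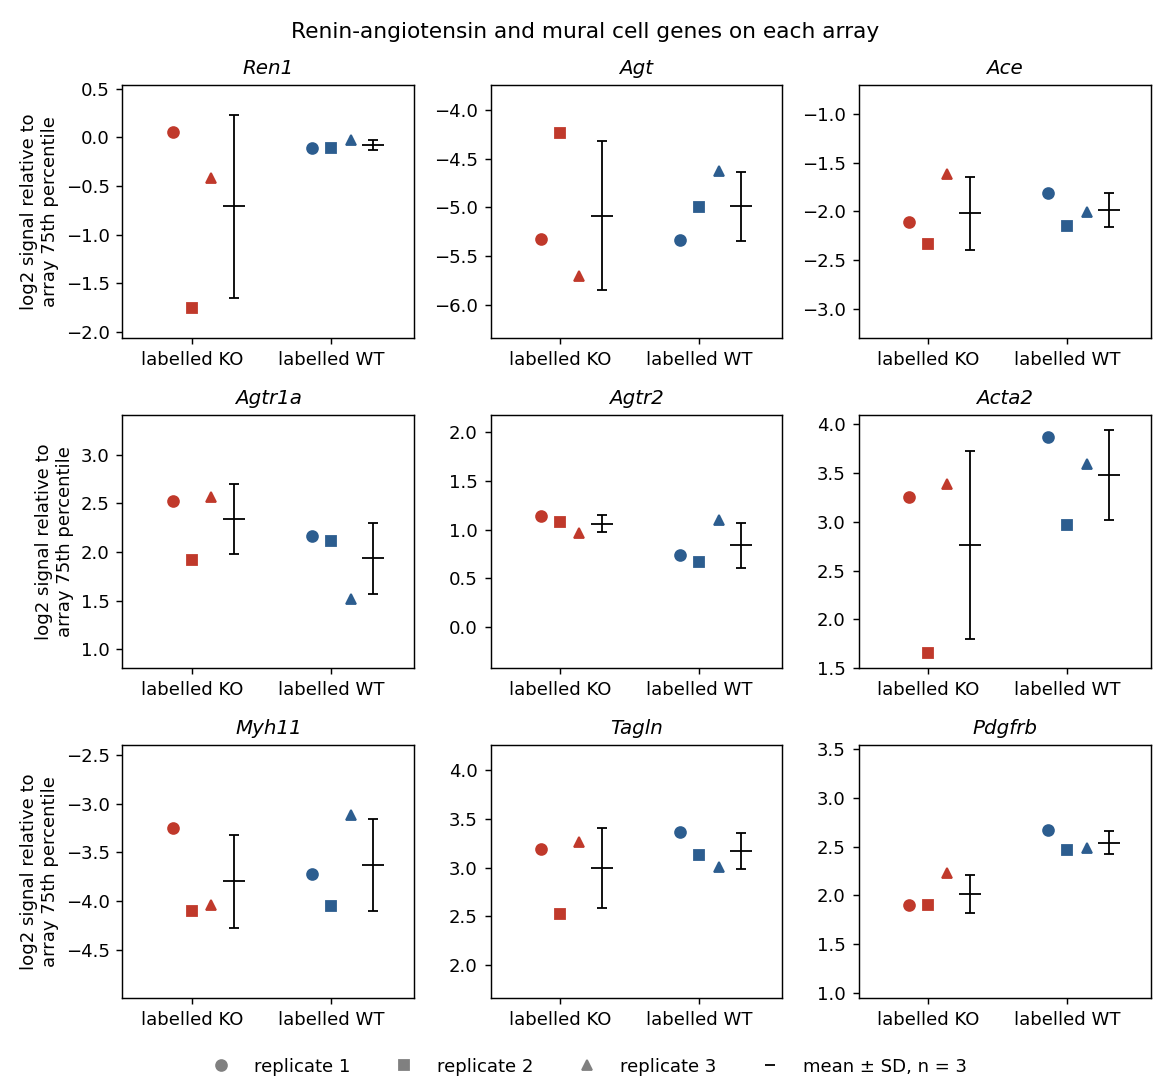
Log2 level relative to the 75th percentile of each array, for the 9 genes, with KO arrays left and WT arrays right in each panel. Points are arrays, point shape gives the replicate number, and bars are group means ± SD. The KO and WT points are apart for Pdgfrb alone, and KO replicate 2 is the lowest point for 6 of the 9 genes.

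Ren1 encodes renin, the enzyme that starts the cascade. Its level was 0.06, -1.76 and -0.42 on KO replicates 1, 2 and 3, against -0.11, -0.11 and -0.02 on the WT replicates. The WT arrays lay close together (SD 0.050), whereas the KO arrays were spread widely (SD 0.94) and reached both above and below them. The difference was -0.63 ± 0.43 (95% interval -1.62 to 0.37, limma adjusted p = 0.591). KO replicate 2 lay 1.34 below the next lowest array, a 2.52-fold gap, and without it the difference was -0.10. Without KO replicate 1 it was -1.01 instead, and against WT replicate 3 alone it was -0.68. It was -0.79 within the first scan and -0.31 within the second. Mice of some strains carry a second renin gene, Ren2, nearly identical in sequence, and whether this probe also reads it was not tested.

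The promoters of Ren1 and Acta2 are shown, which are 2 of the 6 members that were lowest on KO replicate 2. They are the 150 bases before the annotated start in RefSeq (GRCm38.p6), at chr1:133350524-133350673 on the plus strand for Ren1 and chr19:34255374-34255523 on the minus strand for Acta2. Capitals mark CArG-type boxes, the serum response factor motif with at most 1 position outside A or T allowed in its core, and the motif TATAAA. Both strands were searched.
Ren1: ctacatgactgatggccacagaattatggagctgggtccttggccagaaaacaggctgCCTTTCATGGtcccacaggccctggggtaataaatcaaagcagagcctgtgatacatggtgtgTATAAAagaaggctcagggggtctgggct
Acta2: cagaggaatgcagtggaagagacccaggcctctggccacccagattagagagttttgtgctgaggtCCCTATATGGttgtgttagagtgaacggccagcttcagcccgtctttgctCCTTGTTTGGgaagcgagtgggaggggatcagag
The Ren1 window holds 1 CArG-type box, beginning 92 bases before the start, and a TATAAA beginning 29 bases before it. The Acta2 window holds 2 CArG-type boxes, beginning 84 and 34 bases before the start. Ace was also lowest on KO replicate 2, and the windows given for it hold no such box. Among the 5 members with a promoter entry, only Ren1 and Acta2 had a CArG-type box in windows of 300 bases. Myh11, Tagln and Pdgfrb have no entry. Over all 32544 promoter windows, cut to the same 150 bases, a CArG-type box was in 5.10% and 2 or more in 0.289%, while TATAAA on either strand was in 7.56%. Such a match describes the letters and does not show that a factor binds there.

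Agt encodes angiotensinogen, the substrate of renin. Its probe was dim: well above background on 2 of 3 KO arrays and 3 of 3 WT arrays, so that it passed the filter through the WT arrays alone. It read -5.33, -4.23 and -5.70 on the KO arrays, against -5.34, -5.0 and -4.63 on the WT arrays. The KO arrays held both the highest and the lowest of the 6 values, and the difference was -0.10 ± 0.39 (interval -1.0 to 0.80, adjusted p = 0.935). Against WT replicate 3 alone it was -0.46.

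Ace, the enzyme that forms angiotensin II, read -2.11, -2.34 and -1.61 on the KO arrays, against -1.81, -2.15 and -2.01 on the WT arrays. The groups overlapped and their difference was -0.033 ± 0.23 (interval -0.56 to 0.50, adjusted p = 0.966), or -0.013 against WT replicate 3 alone. The interval for Ace is the tightest of the 3 genes upstream of the receptors, and it still allows differences of about 0.5 in either direction.

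Agtr1a encodes the type 1 receptor that mediates most vascular and tubular actions of angiotensin II. It read 2.52, 1.92 and 2.57 on the KO arrays, against 2.17, 2.11 and 1.52 on the WT arrays. KO replicates 1 and 3 were above every WT array and KO replicate 2 was inside their range. The difference was 0.40 ± 0.26 (interval -0.21 to 1.01, adjusted p = 0.576), and it was 0.41 and 0.40 within the 2 scans. Against WT replicate 3 alone it was 0.82, without KO replicate 2 it was 0.61, and without WT replicate 3 it was 0.20. Over all alternatives it lay between 0.20 and 0.82 without passing the test.

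Agtr2, the type 2 receptor of fetal kidney mesenchyme, read 1.14, 1.08 and 0.96 on the KO arrays, against 0.74, 0.67 and 1.1 on the WT arrays. The difference of 0.22 ± 0.18 (interval -0.20 to 0.64, adjusted p = 0.649) turned to -0.042 against WT replicate 3 alone. Neither receptor's groups were separate.

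Acta2 encodes smooth muscle alpha-actin, a contractile protein of arteriolar smooth muscle. Its level was 3.25, 1.65 and 3.39 on the KO arrays, against 3.88, 2.97 and 3.59 on the WT arrays. The groups overlapped, since KO replicates 1 and 3 lay above WT replicate 2. The difference was -0.71 ± 0.48 (interval -1.83 to 0.40, adjusted p = 0.586), the most negative of the 9. KO replicate 2 was 1.32 below the next lowest array, a 2.49-fold gap, and without it the difference was -0.16. Leaving out 1 array at a time gave -1.03 to -0.16, and WT replicate 3 alone gave -0.83. Within the 2 scans it was -0.83 and -0.48. The probe was printed 10 times per array, and the SD between its spots was 0.033 to 0.068, which covers spot noise within an array and no difference between animals or preparations.

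Tagln encodes transgelin, an actin-binding protein of smooth muscle. It read 3.19, 2.52 and 3.27 on the KO arrays, against 3.37, 3.13 and 3.01 on the WT arrays (-0.18 ± 0.24, interval -0.74 to 0.38, adjusted p = 0.785). KO replicate 2 was again lowest, by 0.49, and the difference without it was 0.058. Against WT replicate 3 alone it was -0.018.

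Myh11 encodes smooth muscle myosin heavy chain, a specific marker of mature smooth muscle. It read -3.25, -4.11 and -4.04 on the KO arrays, against -3.72, -4.05 and -3.12 on the WT arrays (-0.17 ± 0.32, interval -0.92 to 0.58, adjusted p = 0.851). Its values were mixed between groups on every side, with KO replicate 1 second highest. Against WT replicate 3 alone, the highest array, the difference was -0.68. The 3 contractile genes thus had negative differences, and none was separated between groups.

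Pdgfrb encodes the receptor for platelet-derived growth factor B, which recruits pericytes and mesangial cells to vessels. It read 1.90, 1.90 and 2.23 on the KO arrays, against 2.67, 2.47 and 2.48 on the WT arrays. All KO arrays lay below all WT arrays, and the spread within each group was small (SD 0.19 on KO arrays and 0.11 on WT arrays). The difference was -0.53 ± 0.17 (interval -0.94 to -0.13), with an unadjusted p of 0.0171 and a limma adjusted p of 0.416. It was -0.58 within the first scan and -0.44 within the second, and leaving out KO replicate 2, or using only WT replicate 3 for the WT side, gave -0.47 each time. Over all alternatives it ranged from -0.64 to -0.44, and its adjusted p from 0.176 to 1.00.

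Pdgfrb was thus 1 of 9 members with no overlap. Of all genes, 8.10% had every KO array below every WT array and 18.2% did not overlap in either direction. It was also the 1 member of 9 at an unadjusted p under 0.05, against 10.4% of all genes (4.23% lower and 6.15% higher on KO arrays). Both shares are close to the background. With scan as a block the fit called none of the 9, against 0.292% of all genes, and again 1 of 9 stood at an unadjusted p under 0.05, against 17.7% of all genes. The members' median difference was -0.17, against 0.028 over all genes tested, and 7 of 9 had negative differences, against 46.7% of all genes.

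KO replicate 2 was the lowest of the 6 arrays for Ren1, Ace, Acta2, Myh11, Tagln and Pdgfrb, 6 of the 9 genes, where it was lowest for 18.9% of all genes. Without it the members' median was -0.016. Ren1 and Acta2 correlated at r = 0.892 over the 6 arrays, Acta2 and Tagln at 0.906 and Ren1 and Tagln at 0.848, which describes 6 points with KO replicate 2 at the end. Whether that array's tissue, its RNA or its hybridisation moved these values was not tested.

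**Figure D2:**
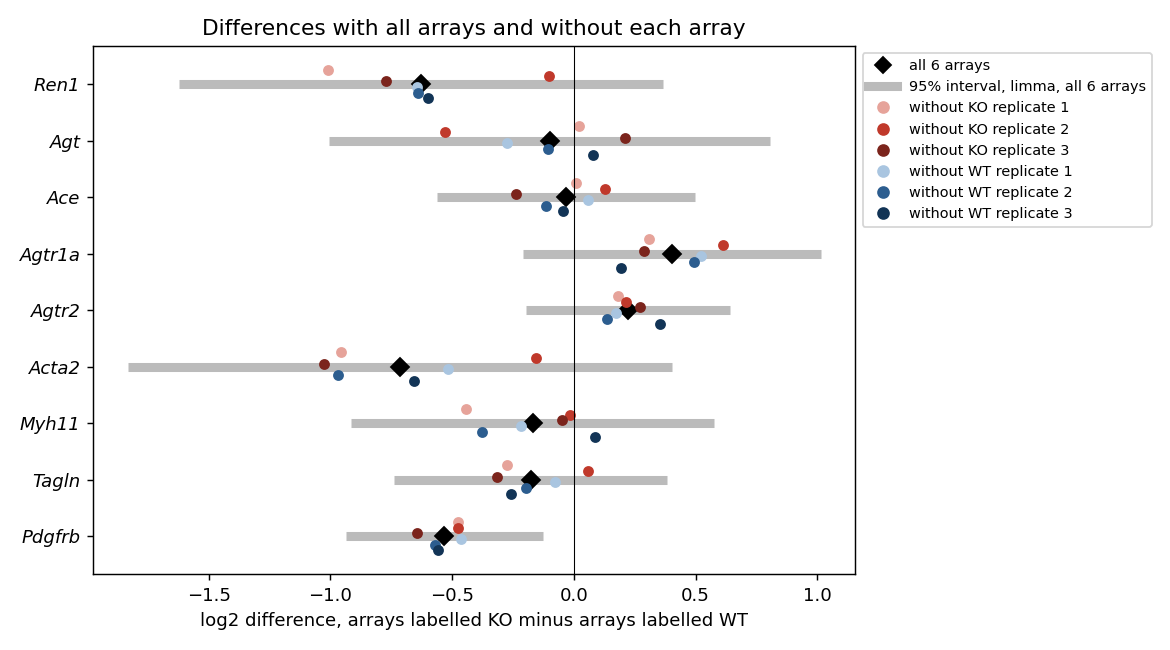
Log2 difference, KO minus WT, for each of the 9 genes with all 6 arrays and with each array left out in turn. Pdgfrb lies between -0.64 and -0.47 whichever array is left out, whereas Acta2 goes to -0.16 and Ren1 to -0.10 without KO replicate 2.

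The genes whose values followed a member most closely were taken among 10843 named genes with an SD of at least 0.2 over the 6 arrays, by Pearson's r over those arrays. For Ren1 they were Slc16a4 (0.999), Slc5a2 (0.997) and Slc34a1 (0.997). The last 2 encode the glucose transporter and the phosphate transporter of the proximal tubule. For Acta2 they were Kif18b, Paqr9 and Lap3, at 0.997 each, and for Tagln they were Crmp1 (0.997), Mcm3 (0.997) and Vegfd (0.995). For Pdgfrb they were Adgrl4 (0.995), an endothelial receptor, Man1c1 (0.991) and Trim25 (0.990). For Myh11 they were Specc1l (0.978), Tnnt2 (0.973) and Sdf2l1 (0.967), and for Agt they were Armh3 (0.993), Ift81 (0.990) and Slc35g3 (0.989). With 6 arrays, high values were not limited to the genes named. Counts of genes over 0.95, a cut below every value above, were 159 for Ren1, 152 for Acta2 and 105 for Tagln. They were 62 for Pdgfrb, 55 for Agt and 9 for Myh11.

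The wider angiotensin pathway list held 23 genes, of which 20 passed the filter and none passed the test. Differences were positive in 6 and negative in 14, with a median of -0.17. Nln counted as positive by its brightest probe (0.31), and another probe of it, well above background on all 6 arrays, differed by -0.46. Agtr1b, the second type 1 receptor gene of mice, read -4.19, -5.16 and -4.39 on the KO arrays, against -3.52, -3.71 and -3.89 on the WT arrays. All 3 KO values lay below all 3 WT values (-0.87 ± 0.27, adjusted p = 0.402), opposite in sign to its paralog Agtr1a, and hybridisation of one gene's RNA to the other's probe was not tested. With the normexp background correction the Agtr1b difference was 0.013 after 75th percentile scaling and -0.31 after quantile scaling, so its direction was not kept under every setting.

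Of the other pathway genes, Rnpep, an aminopeptidase able to trim angiotensins, differed by -0.67 ± 0.23 (adjusted p = 0.431). Atp6ap2, the (pro)renin receptor and a proton pump accessory subunit, differed by 0.44 ± 0.18 (adjusted p = 0.473), with no overlap. Agtrap, which promotes internalisation of the type 1 receptor, differed by -0.59. Enpep (-0.20), Anpep (-0.13) and Mme (-0.077), peptidases of the tubular brush border, had intervals that include 0. Mas1, the receptor for angiotensin 1-7, differed by 0.20.

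In the list of juxtaglomerular and renin-regulating genes, 22 of 24 were tested and none was called. Differences were positive in 6 and negative in 16, with a median of -0.27 that was -0.22 without KO replicate 2 and -0.34 to -0.16 with any 1 array left out. By its brightest probe Adcy5 counted as positive (0.19), and its dimmer probes were at -0.92 and -0.21. Gnas (-0.32) and Gja5 (-0.42) counted as negative, with dimmer probes at 0.35 and 0.10. Gja4, which encodes the vascular gap junction protein connexin 37, read -1.25, -1.45 and -1.49 on the KO arrays, against -0.88, -0.76 and -0.56 on the WT arrays. All KO arrays lay below all WT arrays (-0.67 ± 0.17, adjusted p = 0.330). Akr1b7, a marker of renin cells in mice, read 0.91, 0.47 and 0.89 on the KO arrays, against 1.47, 1.14 and 1.30 on the WT arrays (-0.55 ± 0.19, adjusted p = 0.437). For both, every KO array lay below every WT array, which was not so for Ren1. Adrb1, the receptor through which sympathetic nerves release renin, gave no settled direction: its tested probe was well above background on 0 of 3 KO arrays and 3 of 3 WT arrays, and passed the filter through the WT arrays alone. A second Adrb1 probe was well above background on KO replicate 2 and WT replicate 3. Pde3b, a phosphodiesterase of the cAMP pathway, differed by 0.37.

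The smooth muscle list held 24 contractile and cytoskeletal genes, of which 22 were tested, 5 with positive and 17 with negative differences and none called. Its median of -0.19 was -0.37 without KO replicate 1 and 0.026 without KO replicate 2, which was the lowest array for 14 of the 22. Mustn1 (-0.62 ± 0.17, adjusted p = 0.353) and Vcl, which encodes vinculin (-0.66 ± 0.25, adjusted p = 0.460), had no overlap between groups. Synm, by its brightest probe (0.34), had none either, with every KO array above every WT array. Thus 2 of the 22 genes were separate with lower and 1 with higher values on KO arrays, against 8.10% and 10.1% of all genes. Mustn1 was well above background on 2 of 3 KO arrays and passed the filter through the WT arrays alone, and its difference was 0.17 with normexp and 75th percentile scaling. Probes disagreed for Synm, which encodes the filament protein synemin, with differences of -1.29 to 0.34 over 5 probes. Those of Tpm1, which encodes tropomyosin 1, ran from -0.44, for the brightest probe, to 0.00011. Smtn, Cald1 and Synpo2 counted as positive by their brightest probe (0.20, 0.27 and 0.32). Each had another probe with a negative difference (-0.30, -0.26 and -0.040). Pdlim7 counted as negative (-0.30) and had another probe at 0.35, so the counts by sign depend on the probe chosen. A CArG-type box lay in 3 of the 24 windows of 150 bases that RefSeq gives for genes of this list, or 12.5%: those of Acta2, Myl6 and Myl9.

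Of 9 transcriptional regulators in the serum response factor and myocardin list, 7 were tested and none was called, with 5 positive and 2 negative differences and a median of 0.15. Tead3, a transcription factor of the Hippo pathway, read -0.46, -0.38 and -0.22 on the KO arrays, against -1.03, -0.94 and -1.34 on the WT arrays. All KO arrays lay above all WT arrays (0.75 ± 0.18, adjusted p = 0.301). Mrtfb, a coactivator of serum response factor, differed by 0.43 and Srf itself by -0.11. Another Srf probe differed by -0.33, with every KO array below every WT array. Mrtfa counted as positive by its brightest probe (0.17) and had another probe at -0.19, also without overlap. The other probes of Mrtfb (0.30 and 0.47) and of Tead1 (0.14 and 0.032) kept the sign of the brightest one. Myocd, the myocardin of smooth muscle, did not reach the filter.

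The pericyte and mesangial list, Pdgfrb included, held 20 genes. Of these 19 were tested, 6 with positive and 13 with negative differences and none called, with a median of -0.35 that was -0.18 without KO replicate 2 and -0.45 without KO replicate 1. Itga1 and Mcam counted as positive by their brightest probe (1.12 and 0.34), and each had another probe with a negative difference (-0.43 and -0.34). The brightest Itga1 probe read 1.25 on KO replicate 2 and -0.96 or lower elsewhere. Heyl, a Notch target of vascular smooth muscle and pericytes, read 0.85, 0.66 and 1.12 on the KO arrays, against 1.82, 1.48 and 1.55 on the WT arrays. All KO arrays lay below all WT arrays (-0.74 ± 0.19, adjusted p = 0.334). Over all alternatives the Heyl difference lay between -0.86 and -0.63 and its adjusted p between 0.105 and 1.00. Cspg4, the NG2 proteoglycan of pericytes, differed by -0.47 ± 0.18 (adjusted p = 0.460), and Gucy1b1, a subunit of the nitric oxide receptor, by -0.63 ± 0.27 (adjusted p = 0.482). Both had no overlap, and in all 5 of the 19 genes had every KO array below every WT array and none the reverse, against 8.10% and 10.1% of all genes.

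**Figure D3:**
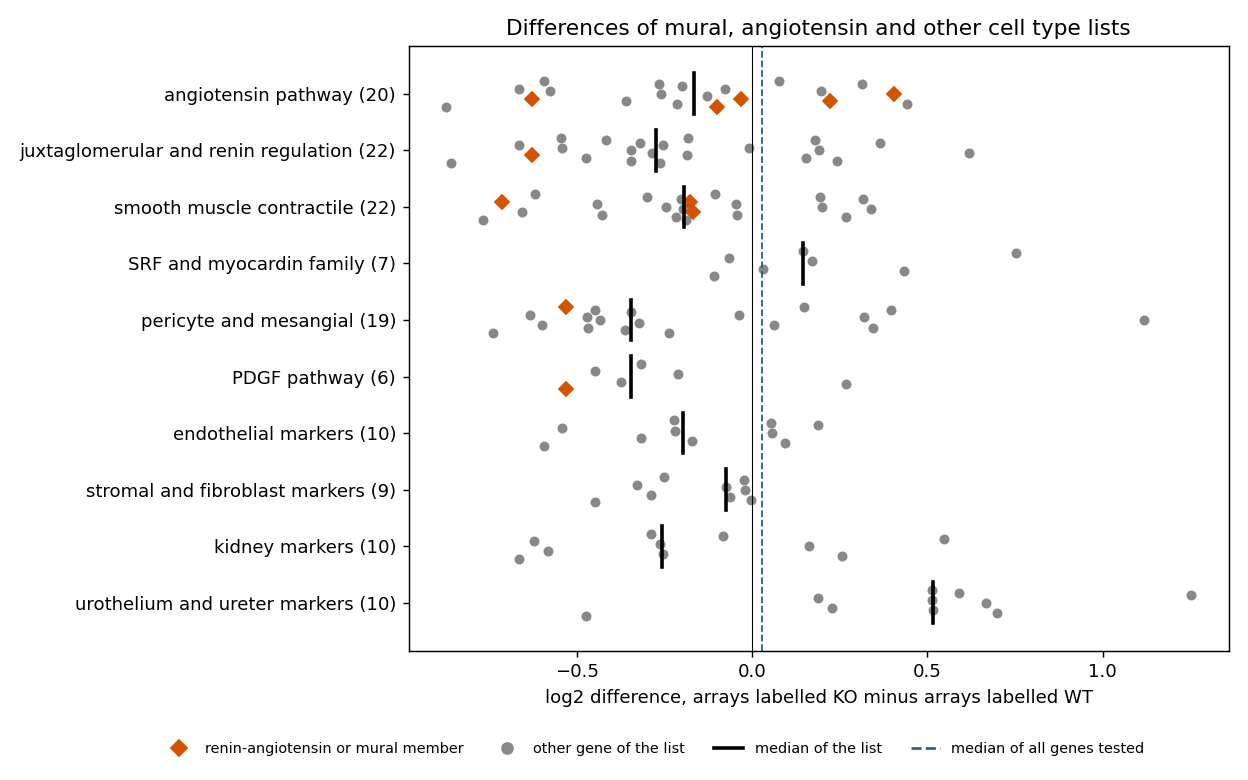
Log2 difference, KO minus WT, of every tested gene in the angiotensin, juxtaglomerular, smooth muscle, regulator, pericyte and marker lists, 1 row per list, with the list median and the median of all genes. The pericyte and mesangial median is -0.35 and the urothelium median 0.52, while all genes have 0.028.

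In the platelet-derived growth factor pathway, Pdgfb, the endothelial ligand of Pdgfrb, read -1.24, -1.10 and -0.57 on the KO arrays, against -0.15, -0.89 and -0.92 on the WT arrays (-0.32 ± 0.28, adjusted p = 0.676), and differed by -0.052 against WT replicate 3 alone. The groups of Pdgfb overlapped, whereas those of Pdgfrb did not. Pdgfd had no overlap either, at -2.27, -2.34 and -2.27 on the KO arrays, against -2.10, -2.12 and -2.02 on the WT arrays. The sister receptor Pdgfra differed by -0.45, Pdgfd by -0.21 and Pdgfa by 0.27. Of the 6 genes 5 had negative differences, and the median was -0.35.

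Markers of neighbouring cells were read on the same arrays, and their part in the differences was not tested. Of 10 endothelial markers 6 had negative differences (median -0.20), with Cdh5 at -0.54, Tek at -0.59 and Pecam1 at -0.22. These 3 of the 10 had every KO array below every WT array and none the reverse, against 8.10% and 10.1% of all genes. Egfl7 (0.19), Kdr (0.057), Flt1 (0.092) and Esam (0.053) had positive ones. The summed linear level of the 10 markers was 40.1 to 48.1 on KO arrays and 37.5 to 46.9 on WT arrays. All 9 tested stromal markers had negative differences (median -0.076), and KO replicate 2 was the lowest array for 8 of them. The stromal sum was 169 to 284 on KO arrays and 177 to 252 on WT arrays. Without KO replicate 2 the stromal median was 0.10.

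Markers of urothelium, the lining of the renal pelvis, went the other way: 9 of 10 differences were positive, with a median of 0.52 and a sum of 8.63 to 15.7 on KO arrays against 5.56 to 8.53 on WT arrays. KO replicate 2 was highest there, at a median of 0.62 above the mean of the 6 arrays. Krt20, a keratin of its surface cells, differed by 1.25 ± 0.26 (adjusted p = 0.219). General kidney markers had 7 of 10 negative differences (median -0.26, and 0.011 without KO replicate 2). Slc34a1 of the proximal tubule read 3.15, 1.6 and 2.72 on the KO arrays, against 2.99, 3.04 and 3.20 on the WT arrays. It was lowest on KO replicate 2, as Ren1 and Acta2 were.

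Lists for adjoining or other organs were read too. Adrenal markers summed to 1.12 to 1.34 on KO arrays and 0.995 to 1.19 on WT arrays, with Cyp11a1, Cyp11b2 and Dbh below background throughout. Skeletal muscle markers summed to 0.597 to 0.957 on KO arrays and 0.734 to 1.15 on WT arrays, with Ckm, Mylpf, Myog and Ryr1 below background. Liver markers summed to 24.4 to 27.8 on KO arrays and 18.9 to 23.7 on WT arrays, with Apoa1 below background. The liver median was -0.30, opposite to the sum, and lay between -0.43 and 0.32 with 1 array left out. Afp, with the highest signal, differed by 0.41, while Alb differed by -1.59 and Ahsg by -2.01. KO replicate 1 was the lowest array for Alb (-5.11, next lowest -3.20) and for Ahsg (-3.97, next lowest -1.94). With 1 array left out, Alb lay between -2.38 and -0.72 and Ahsg between -2.76 and -1.12.

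Across arrays the lists differed in shape. The smooth muscle median deviated by 0.12, -0.48 and -0.014 on the KO arrays, against 0.077, 0.021 and 0.15 on the WT arrays, so that KO replicate 2 alone lay clearly below. The pericyte median deviated by -0.042, -0.38 and -0.13 on the KO arrays, against 0.14, 0.11 and 0.21 on the WT arrays, and KO replicate 2 was the lowest array for 10 of its 19 genes. For the pericyte list every KO array was below every WT array, whereas for smooth muscle KO replicate 1 was inside the WT range. This separation was not limited to pericyte genes. Endothelial markers had it too (0.016, -0.15 and -0.13 on KO arrays, 0.066, 0.048 and 0.11 on WT arrays). So did general kidney markers (-0.021, -0.18 and -0.033 against 0.11, 0.032 and 0.0081). The platelet-derived growth factor list was a further case (-0.043, -0.33 and -0.062 against 0.24, -0.0047 and 0.19). The difference between the pericyte and smooth muscle patterns was not tested.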

How the data were processed

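The authors deposited 1 scanner file per array with Agilent spot intensity values, per the file headers made with Feature Extraction 11.0.1.1 and per the submitters' processing notes with version 9.1. The processed signal, background-subtracted by that program, was taken as log2 minus each array's 75th percentile after leaving out control and outlier spots. Of 39429 probes, 27234 (69.1%) were named through RefSeq accessions. Probes were kept where every array of 1 group or the other flagged them as well above background, and a gene was represented by its brightest probe. Groups of 3 were compared with limma 3.58.1 (lmFit, eBayes) in R 4.3.3, with Benjamini-Hochberg adjustment over all genes, threshold 0.05. Lists are described by counts and medians, without set tests. The members and lists were chosen with earlier results of these data known. Named genes were Usp10, the members, the angiotensin, PDGF and regulator lists, up to 4 genes of each other list by unadjusted p and up to 4 by signal, and the 3 genes most like a member. Smtn, Cald1, Synpo2, Pdlim7, Itga1, Mcam, Adcy5, Gnas and Gja5 were named too, for probes that disagree in sign. For a check of pairing, each gene's group mean was subtracted from the arrays of that group. The remaining deviations, not the levels themselves, correlated at r = -0.397, 0.481 and -0.601 between same-numbered replicates. The pairs numbered 1 and 3 were each split between the scans, and only the pair at 0.481 shared a scan. The deviations of KO replicate 3 and WT replicate 1, which shared the second scan, had r = 0.887. Because scan and number are mixed in this way, these values cannot decide whether numbers pair samples. The main fit left samples unpaired, and a replicate block is among the alternatives. Scripts were tested on simulated data. The alternatives are in the closing section. Promoters are from RefSeq, with entries for 5 of 9 members. Some results are not reported here.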

Additional observations from a re-analysis of the deposited data

How the results depend on the processing

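None of the 9 genes was called under any alternative that adjusted p, and 1, Pdgfrb, stood at an unadjusted p under 0.05 in the fit of all arrays. Unadjusted, that count was 3 with scan as a block and without KO replicate 2, and 0 without WT replicate 1, against WT replicate 3 alone and with the replicate block without KO replicate 2. Ren1, Agtr1a, Acta2 and Pdgfrb kept their sign in all alternatives. The count over all genes was unstable: 17, against 22 with quantile, 23 with median and 24 with normexp and 75th percentile scaling, 8 with the mean of probes, 1 with probes well above background on all 6 arrays, 45 with an intensity trend, 36 with array weights, 62 with scan as a block and 115 with that block and without KO replicate 2. It was 0 with normexp and quantile scaling (2245 at an unadjusted p under 0.05), no filter (2051), WT replicate 3 alone (2009), replicate block (1610) and replicate block without KO replicate 2 (414), and 0 to 30 with 1 array left out, against 2203 unadjusted in all arrays. The replicate block changed no member's call. Both fits that combine a block with leaving out KO replicate 2 were chosen after seeing the data. Directions near 0 turned. Agt was 0.33 with normexp and 75th percentile scaling, 0.034 within the first scan and -0.53 to 0.21 with 1 array left out (0.020, 0.21 and 0.080 where positive). Ace was 0.098 with normexp, 0.20 within the second scan, 0.047 with the replicate block and 0.066 with the scan block, both without KO replicate 2, and -0.24 to 0.13 with 1 array left out (0.011, 0.13 and 0.057 where positive). Agtr2 was -0.042 against WT replicate 3 alone. Myh11 was 0.21 with normexp, 0.054 with the scan block without KO replicate 2, and -0.44 to 0.087 with 1 array left out. Tagln was 0.038 and 0.024 with the replicate and scan block without KO replicate 2, and -0.32 to 0.058 with 1 array left out. The members' median was 0.098 with normexp and 75th percentile scaling, where all genes had 0.14, -0.46 against WT replicate 3 alone, and -0.28 to -0.016 with 1 array left out. The causes were not tested. With 3 arrays a group, signal over background limits the dim probes of Agt, Myh11, Agtr1b, Mustn1 and Adrb1.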

Other observations

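Of the genes outside the renin-angiotensin and mural lists, Hsd3b1, an enzyme of steroid synthesis placed here among the adrenal markers, was among those furthest apart. It read -2.69, -1.86 and -2.54 on the KO arrays, against -4.14, -3.79 and -4.49 on the WT arrays (1.78 ± 0.28, limma adjusted p = 0.095), with no overlap between groups. Over all alternatives its adjusted p lay between 0.056 and 1.00. Of the 6 tested adrenal markers 3 had positive and 3 negative differences. Among 8 tested liver markers, 4 with positive and 4 with negative differences, Fga, a fibrinogen chain, differed by 1.14 ± 0.38 (adjusted p = 0.424) and Ahsg, the plasma protein fetuin-A, by -2.01 ± 0.72 (adjusted p = 0.437), each without overlap. None of these genes was called in the main fit. Over all alternatives the lowest limma adjusted p of Ahsg was 0.0498, just under the threshold of 0.05.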
